A study of Mus musculus with 8 samples.

Results

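The type IV collagen chains Col4a1, Col4a2, Col4a3, Col4a4, Col4a5 and Col4a6 were examined in liver RNA from Brap LKO mice and their Cre-negative controls. The chains were chosen by symbol, and all 6 were found among the 24451 genes of the deposited table. Brap LKO mice (n = 4) carry floxed alleles of Brap, a ubiquitin ligase, and Cre recombinase under the albumin promoter, which is active in hepatocytes (Brap fl/fl; Alb Cre+). Brap F/F mice (n = 4) carry the same floxed alleles without Cre (Brap fl/fl; Alb Cre-), so that the presence of Cre and the loss of Brap cannot be told apart. All of the mice were C57BL/6, 18 wk old and fasted for 6 h, the study used males, and RNA came from the left lobe of the liver. The 8 livers are called LKO 1 to 4 and F/F 1 to 4 after their genotype and replicate number. The comparison asks how the genotypes differ in the genes that encode this matrix protein.

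Type IV collagen is the sheet-forming collagen of basement membranes. Its chains wind into heterotrimers in the endoplasmic reticulum, and the secreted trimers join end to end into a network that laminin, nidogen and perlecan attach to. The trimer of Col4a1 and Col4a2 is found in nearly every basement membrane, that of Col4a3, Col4a4 and Col4a5 mainly in the kidney glomerulus, the lung and the inner ear, and that of Col4a5 and Col4a6 under some epithelia and smooth muscle. In the liver, type IV collagen surrounds bile ducts and vessels and lies in low amount along the sinusoids, and stellate and endothelial cells are known sources. The genes lie in head-to-head pairs that are transcribed away from each other.

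All 6 chains had higher normalized counts in each of the 4 Brap LKO livers than in any of the 4 Brap F/F livers. Col4a3 had the largest difference of the 6, at 6.54-fold higher (95% confidence interval 4.64 to 9.23), and it ranked 4 by p-value among the 15352 genes tested. Col4a2 was 1.82-fold (1.52 to 2.17) and Col4a1 1.59-fold (1.31 to 1.93) higher. These 3 chains passed an adjusted p-value of 0.05 (limma on log2(normalized count + 1), adjusted over all genes tested). Among all genes tested, 0.664% passed in this direction. Col4a4, Col4a5 and Col4a6 differed by 2.59-fold (1.46 to 4.59), 2.05-fold (1.48 to 2.83) and 3.30-fold (1.76 to 6.21), with adjusted p-values between 0.0633 and 0.124. The 2 groups did not overlap, with Brap LKO higher, for 5.48% of all genes tested. The median difference over all genes tested was -0.01 on the log2 scale. RNA was taken from whole liver, so that more cells of a type and more RNA per cell cannot be told apart.

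Between 26280884 and 33313914 reads were counted on genes per liver. The control livers formed 2 pairs, F/F 2 with F/F 3 and F/F 1 with F/F 4, which stood apart on the first (37.2% of the variance) and second (22%) principal components. The animal numbers in the labels fell into a lower series (3 Brap LKO and 1 Brap F/F mice) and a higher series (1 Brap LKO and 3 Brap F/F mice), so series and genotype partly coincide. With 1 mouse of one genotype in each series no test within a series was run. The knockout values of every chain were above the control values over all 8 livers. The same order within each series follows from that and is no separate check. Reads on Brap itself came to 3641 to 4203 normalized counts in LKO 1 to 4 and 3994 to 4410 in F/F 1 to 4, a log2 fold change of -0.07 (limma adjusted p-value 0.631). A count over the whole gene includes reads from exons that a floxed deletion leaves in place, so this value does not check the genotype labels. The labelled tissue was checked by 8 hepatocyte genes, Alb among them, which summed to between 2078000 and 3990000 normalized counts per liver.

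Col4a1 and Col4a2 encode the common trimer. The 2 genes lie on mouse chromosome 8 (GRCm38), Col4a1 at 11198423 to 11312826 on the minus strand and Col4a2 at 11312805 to 11449287 on the plus strand, and their annotated first exons share 22 bases. Col4a1 had 1945, 1797, 1812 and 2298 normalized counts in LKO 1 to 4, and 1439, 989.5, 1216 and 1304 in F/F 1 to 4. The highest control liver (F/F 1) lay below the lowest knockout liver (LKO 2) by a factor of 1.25. The log2 fold change was 0.67 ± 0.124 (SE, n = 4 per group; limma adjusted p-value 0.0494). This call was lost on leaving out any one of LKO 1, LKO 2, LKO 3, LKO 4, F/F 1, F/F 2 and F/F 3 (adjusted p-values 0.0555 to 0.161, limma).

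Col4a2 had 1922, 1835, 1556 and 2012 normalized counts in LKO 1 to 4, and 958.9, 854.3, 1042 and 1187 in F/F 1 to 4. The spread within each group was narrow, with a coefficient of variation of 10.8% in Brap LKO and 13.9% in Brap F/F. The log2 fold change was 0.86 ± 0.115 (SE, n = 4 per group; limma adjusted p-value 0.0177). The limma adjusted p-value was 0.0716 without LKO 1, 0.0631 without LKO 4 and 0.0517 without F/F 2.

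Col4a3 and Col4a4 encode chains of the trimer best known from the kidney glomerulus. They lie on chromosome 1 (GRCm38), Col4a3 at 82586921 to 82722059 on the plus strand and Col4a4 at 82448423 to 82586849 on the minus strand, with 71 bases between their annotated starts. Col4a3 had 112.0, 83.2, 94.1 and 144 normalized counts in LKO 1 to 4, and 12.5, 20.3, 14.7 and 14.7 in F/F 1 to 4. The lowest Brap LKO liver lay above the highest Brap F/F liver by a factor of 4.09, the widest gap among the 6 chains. The log2 fold change was 2.71 ± 0.221 (SE, n = 4 per group; limma adjusted p-value 0.00152). Col4a3 stayed past the threshold in all 24 alternatives tried, with log2 fold changes of 2.45 to 2.95. The noncoding gene C430014B12Rik, on the opposite strand, shares 563 exonic bases (5.65%) with Col4a3, and whether reads were counted by strand is not given in the sources used here. Its own log2 fold change was -0.11 (limma adjusted p-value 0.817).

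Col4a4 had 37.3, 43.3, 66.8 and 78.0 normalized counts in LKO 1 to 4, and 10.3, 18.3, 29.4 and 29.4 in F/F 1 to 4. The groups were apart by a factor of 1.27, and the coefficient of variation was 34.1% in Brap LKO and 42.7% in Brap F/F. The log2 fold change was 1.37 ± 0.366 (SE, n = 4 per group), and it missed the threshold (limma adjusted p-value 0.124). It passed with the animal series as a covariate (log2 fold change 1.85, limma adjusted p-value 0.0388) and with DESeq2 on the recovered reads (1.36, adjusted p-value 0.0134).

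Col4a5 and Col4a6 lie on chromosome X (GRCm38), Col4a5 at 141475385 to 141689234 on the plus strand and Col4a6 at 141165403 to 141474076 on the minus strand, with 1308 bases between their starts. Col4a5, which takes part in both of the tissue-restricted trimers, had 79.2, 62.9, 76.9 and 115 normalized counts in LKO 1 to 4, and 33.1, 48.8, 39.9 and 37.3 in F/F 1 to 4. The lowest Brap LKO liver lay above the highest Brap F/F liver by a factor of 1.29. The log2 fold change was 1.03 ± 0.21 (SE, n = 4 per group; limma adjusted p-value 0.0633). It passed the threshold with the animal series as a covariate (limma adjusted p-value 0.0335), with the same total in each liver (0.0239, limma) and with DESeq2 (0.0019).

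Col4a6, the partner of Col4a5 under some epithelia, was the chain with the fewest reads. It had 14.6, 9.35, 10.1 and 15.6 normalized counts in LKO 1 to 4, and 1.14, 3.05, 6.31 and 2.94 in F/F 1 to 4. These are 10 to 16 reads per Brap LKO liver and 1 to 6 reads per Brap F/F liver, and the Brap F/F mean of 3.36 lies below the filter of 5 on the mean of all livers, which the gene passed because of its knockout values. The log2 fold change was 1.72 ± 0.405 (SE, n = 4 per group; limma adjusted p-value 0.0941), and with so few reads it depends on the pseudocount. Since only the knockout livers took it past the filter, its difference is given as a value and not as support for the other chains.

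LKO 4 had the highest value of its group for all 6 chains, and it had the highest of its group for 31.1% of all genes tested. Among the controls, F/F 1 was lowest for Col4a3, Col4a4, Col4a5 and Col4a6 and highest for Col4a1, and F/F 2 was lowest for Col4a1 and Col4a2. The exact two-sided permutation test over the 70 arrangements of the 8 livers gave p = 0.0286 for each chain, the smallest it can give. Leaving out LKO 1, LKO 4 or F/F 2 left 1 chain past the threshold (limma), against 0.0717%, 0.0977% and 0.0912% of all genes in this direction. With DESeq2 on the recovered reads all 6 passed, Col4a6 with the limit just given, against 3.02% of all genes. With F/F 2 and F/F 3 both removed 2 chains passed, and with F/F 1 and F/F 4 both removed 3 passed, against 0.801% and 5.87% of all genes.

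**Figure D1:**
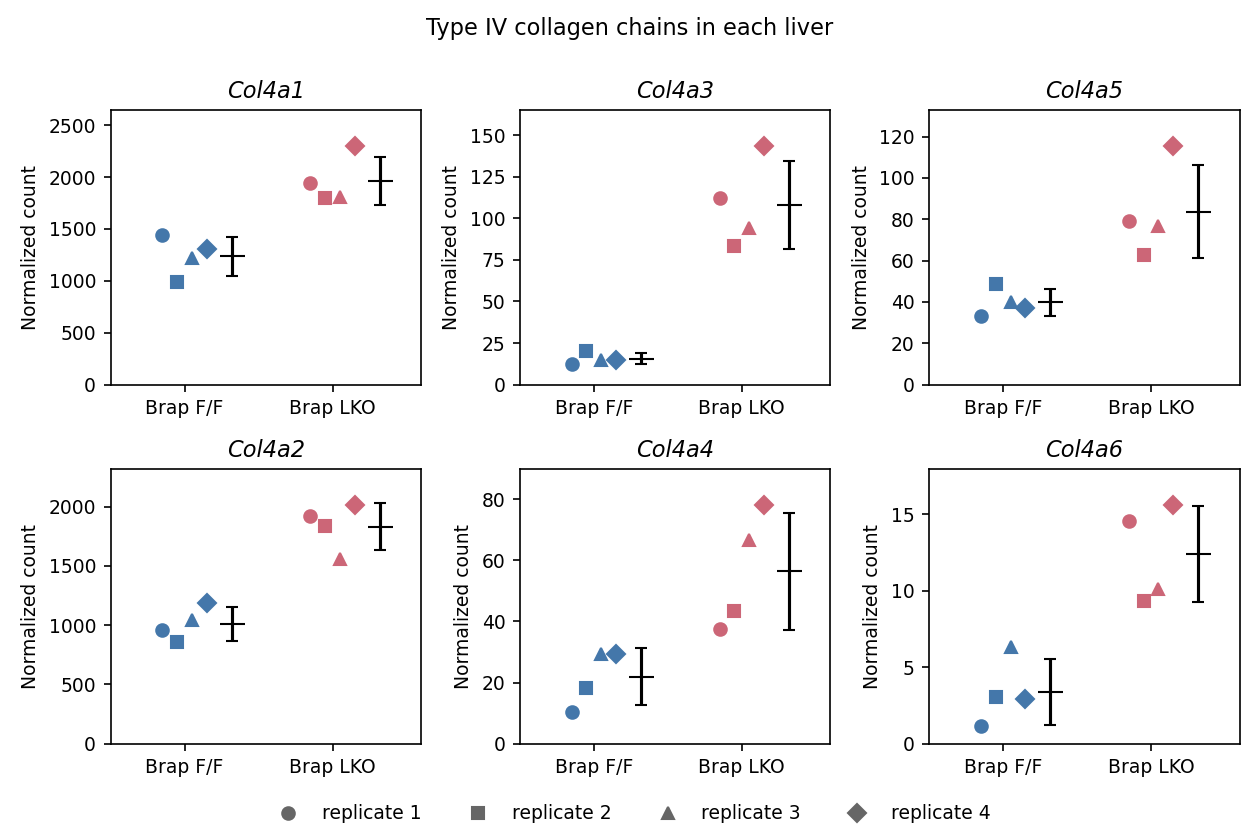
Normalized count (linear axis from 0) of each type IV collagen chain in the 4 Brap F/F (blue) and 4 Brap LKO (red) livers, with head-to-head partners above each other, marker shape for the replicate number, and the mean ± SD in black. In every panel the Brap LKO livers lie above the Brap F/F livers, with the widest gap as a ratio for Col4a3 (83.2 to 144 against 12.5 to 20.3) and LKO 4 highest.

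**Figure D2:**
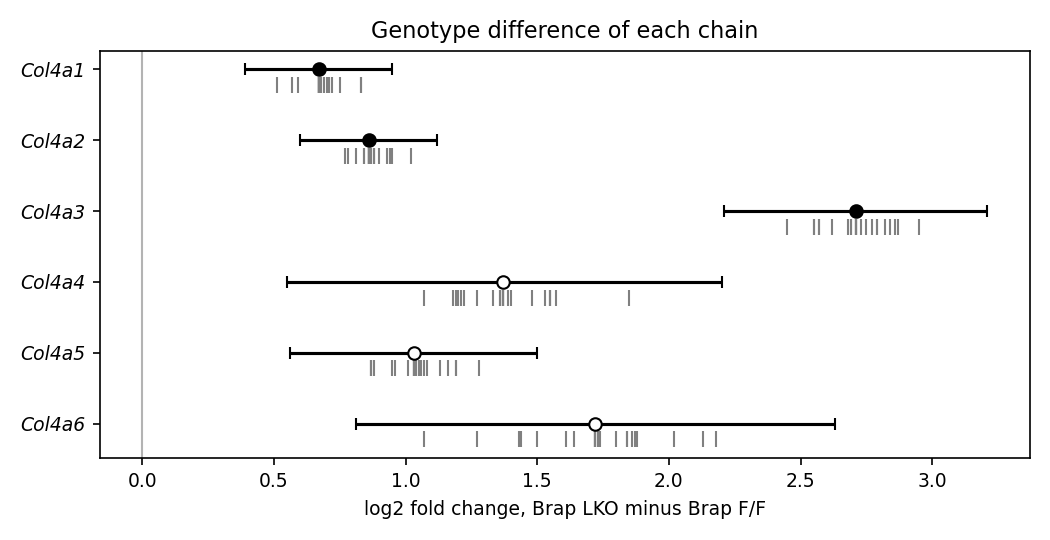
Log2 fold change (Brap LKO minus Brap F/F) of each chain from limma with its 95% confidence interval (circles, filled where the adjusted p-value is under 0.05), and grey ticks for the values under the alternatives tried. All intervals and ticks lie above 0, from 0.51 for the lowest tick of Col4a1 to 2.95 for the highest of Col4a3.

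Levels were compared between chains as normalized counts per kilobase of annotated exon. The 6 chains together reached 570 ± 62.9 (SD, n = 4) normalized counts per kb in Brap LKO livers and 328 ± 39.3 (SD, n = 4) in Brap F/F livers. Col4a1 and Col4a2 made up 94.7% ± 0.874 of this total in Brap LKO and 96.9% ± 0.872 in Brap F/F livers. Col4a3 and Col4a4 made up 2.82% ± 0.479 (range 2.30% to 3.33%) in Brap LKO against 1.12% ± 0.327 (0.645% to 1.38%) in Brap F/F livers, with no overlap between the groups. Col4a5 and Col4a6 made up 2.43% ± 0.407 (1.95% to 2.93%) against 1.98% ± 0.596 (1.47% to 2.80%), with overlapping ranges. The common pair thus held most of the chain total in all 8 livers.

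By mean level per kb, the order in Brap LKO livers was Col4a2 (277 ± 29.8, SD, n = 4), Col4a1 (263 ± 31.3), Col4a5 (12.4 ± 3.34), Col4a3 (10.9 ± 2.64), Col4a4 (5.31 ± 1.81) and Col4a6 (1.56 ± 0.393). In Brap F/F livers it was Col4a1 (166 ± 25.3), Col4a2 (153 ± 21.2), Col4a5 (5.92 ± 0.991), Col4a4 (2.06 ± 0.881), Col4a3 (1.56 ± 0.335) and Col4a6 (0.422 ± 0.270). Col4a1 and Col4a2 did not differ beyond their spread in either group, nor did Col4a5 and Col4a3 in Brap LKO or Col4a4 and Col4a3 in Brap F/F livers. The level per kb of Col4a3 was above that of Col4a4 in 4 of 4 Brap LKO livers and below it in 2 of 4 Brap F/F livers. Col4a5 was above Col4a3 in 4 of 4 Brap LKO livers by exon length, but in 2 of 4 when the length of the transcript with the longest coding sequence was used. Col4a1 was above Col4a2 in 3 of 4 Brap F/F livers by exon length and in 4 of 4 by transcript length. In Brap LKO livers transcript length reversed the order of these 2 means, to 297 for Col4a1 and 284 for Col4a2.

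**Figure D3:**
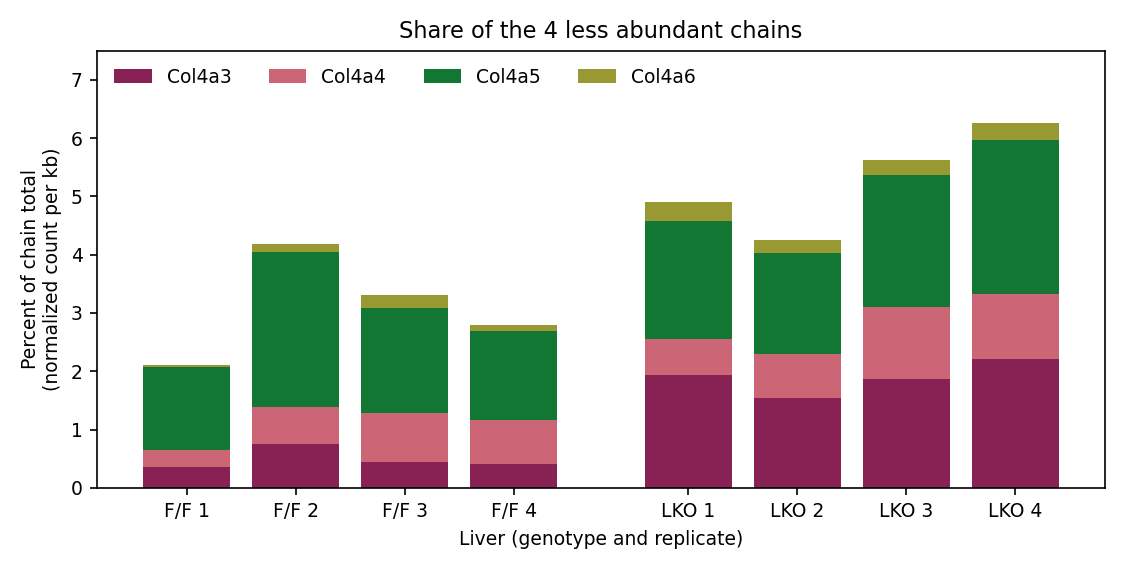
Percent of the type IV chain total (normalized count per kb of exon) held by Col4a3, Col4a4, Col4a5 and Col4a6 in each Brap F/F and Brap LKO liver, as stacked bars from 0, the remainder being Col4a1 and Col4a2. Col4a3 and Col4a4 together hold 0.645% to 1.38% in Brap F/F livers and 2.30% to 3.33% in Brap LKO livers.

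The ratios within and between the pairs were formed in each liver and compared by exact two-sided permutation tests over 70 arrangements, with p-values adjusted over the 6 ratios. The ratio of Col4a3 to Col4a4 counts was 3.0, 1.92, 1.41 and 1.84 in LKO 1 to 4, and 1.22, 1.11, 0.5 and 0.5 in F/F 1 to 4. The groups did not overlap, and the log2 ratio was higher in Brap LKO by 1.34 ± 0.402 (SE, n = 4 per group; exact p = 0.0286, adjusted 0.0572).

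The ratio of the Col4a3 and Col4a4 counts to those of Col4a5 and Col4a6 was 1.59, 1.75, 1.85 and 1.69 in LKO 1 to 4, and 0.667, 0.745, 0.955 and 1.10 in F/F 1 to 4. The Brap LKO livers lay close together and above all Brap F/F livers, with a log2 difference of 1.0 ± 0.165 (SE, n = 4 per group; exact p = 0.0286, adjusted 0.0572). Relative to Col4a1 and Col4a2, the Col4a3 and Col4a4 counts were higher by 1.36 ± 0.286 on the log2 scale (SE, n = 4 per group; exact p = 0.0286, adjusted 0.0572), again without overlap. The raw p-value of 0.0286 is the smallest that 4 livers against 4 can give.

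The other 3 ratios overlapped between the groups. The log2 ratio of Col4a1 to Col4a2 was 0.10 ± 0.12 (SD, n = 4) in Brap LKO and 0.29 ± 0.20 in Brap F/F livers (difference -0.19 ± 0.118, SE; exact p = 0.171, adjusted 0.2). That of Col4a5 to Col4a6 was 2.65 ± 0.21 (SD, n = 4) and 3.34 ± 0.64 (difference -0.69 ± 0.338, SE; exact p = 0.114, adjusted 0.171), and 1 to 6 reads of Col4a6 per Brap F/F liver stand behind the latter. This difference was set largely by the pseudocount, at -0.84 with 0.5 and -0.11 with 5. The ratio of Col4a5 and Col4a6 to Col4a1 and Col4a2 differed by 0.36 ± 0.247 (SE, n = 4 per group; exact p = 0.2, adjusted 0.2).

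**Figure D4:**
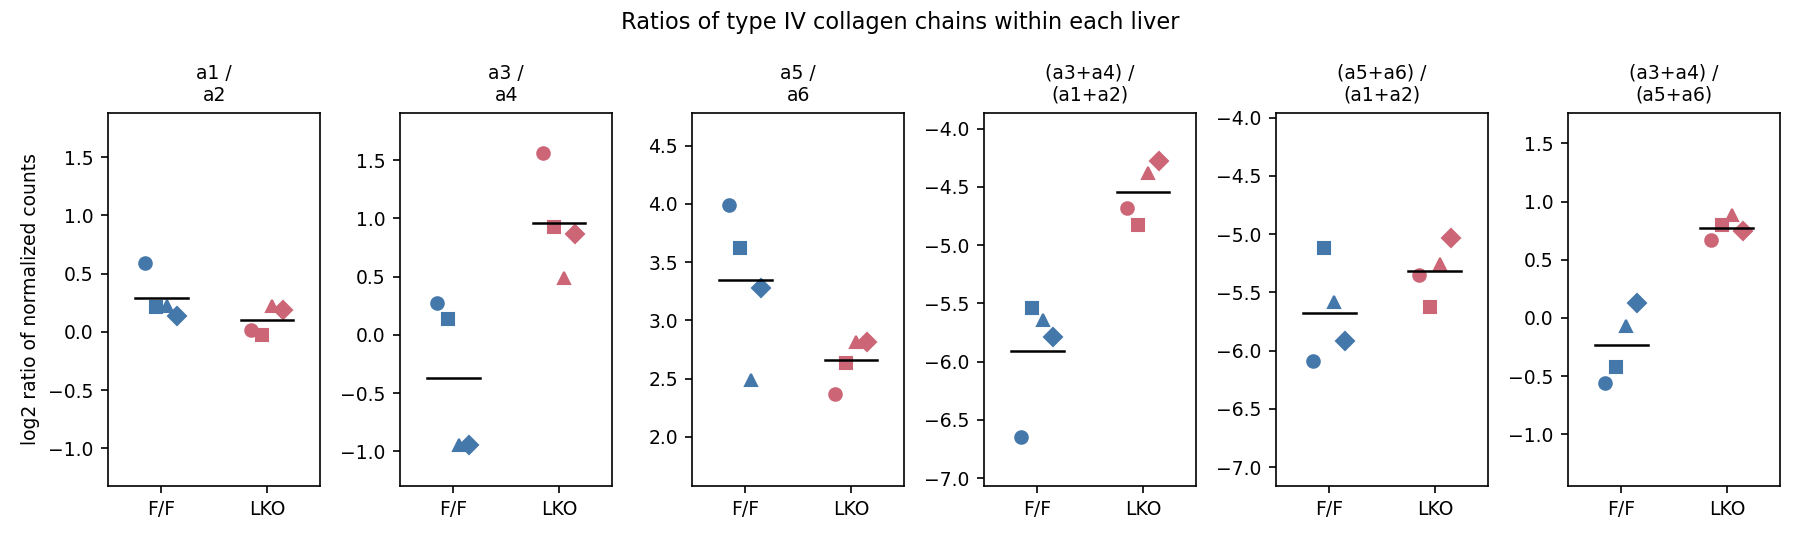
Log2 ratio of normalized counts within each liver for 6 ratios of chains, written without the gene symbol's first letters (a3 / a4 is Col4a3 over Col4a4), in Brap F/F (blue) and Brap LKO (red) livers, with marker shape for the replicate number (circle, square, triangle and diamond for 1 to 4), black bars for group means and axes of equal length. The groups are apart for the ratios with Col4a3 on top (a3 / a4, and a3 plus a4 over either other pair) and overlap for the other 3.

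The start regions of the pairs are shown where they lie outside annotated exons, since the partners of each pair start close together on opposite strands. RefSeq start windows (250 bases before to 50 bases after a gene's start, GRCm38.p6) were matched for 5 of the chains, all but Col4a3. Those of Col4a1 and Col4a2 lie wholly within exons and are not printed. For Col4a4 the sequence is the whole gap between its start and that of Col4a3, at chr1:82586850-82586920, read on the minus strand. For Col4a5 it is chrX:141475169-141475384 on the plus strand, and for Col4a6 chrX:141474077-141474326 on the minus strand. Capitals mark a CCAAT box in Col4a5 and a GC box, read on the opposite strand, in Col4a6.
Col4a4: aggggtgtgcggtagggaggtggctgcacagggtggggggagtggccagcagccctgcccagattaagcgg
Col4a5: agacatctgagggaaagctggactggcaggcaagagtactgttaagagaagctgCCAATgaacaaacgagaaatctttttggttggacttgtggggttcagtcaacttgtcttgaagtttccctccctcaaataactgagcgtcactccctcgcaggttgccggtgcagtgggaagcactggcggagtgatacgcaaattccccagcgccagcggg
Col4a6: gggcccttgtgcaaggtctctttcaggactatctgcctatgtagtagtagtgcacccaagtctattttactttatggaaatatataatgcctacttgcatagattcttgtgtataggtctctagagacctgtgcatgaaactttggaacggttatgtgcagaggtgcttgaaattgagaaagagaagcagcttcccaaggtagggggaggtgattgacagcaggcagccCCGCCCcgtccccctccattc

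The pairs differed in base composition around their starts. GC content over the 300-base windows was 74.0% for Col4a1 and 73.7% for Col4a2, 63.3% for Col4a4, 52.7% for Col4a5 and 48.3% for Col4a6, against a median of 52.7% over all 32851 windows. The TATA box TATAAA, held by 13.6% of all windows on either strand, was found in none of the 5. The CCAAT box CCAAT (37.4% of all windows) occurred once each in the windows of Col4a1, Col4a2 and Col4a5. The GC box GGGCGG (35.7%) occurred in those of Col4a1, Col4a2, Col4a5 and Col4a6, and not in that of Col4a4. The letters GGAATG, the core that TEAD factors bind (14.7%), occurred in the window of Col4a6, across its start. None of the motifs searched was found in the window of Col4a4.

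Of the nearest tested protein-coding genes on either side of each pair, none passed the threshold. Irs2, an adaptor of the insulin receptor, lies 189964 bases from Col4a1, and Nxt2 lies 537535 bases from Col4a5. The rest lie 1132 to 4230 bases from their pair. Irs2 had a log2 fold change of 0.55 ± 0.136 (SE; limma adjusted p-value 0.104), with groups that did not overlap. The other 5 differed by between -0.19 and 0.05 on the log2 scale.

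Each chain was also set beside all other tested genes by the root mean square difference of log2 deviations over the 8 livers, where 0 means the same pattern. The nearest to Col4a1 were Fxyd5 (0.0731), Vsir (0.0977) and Rtl8c (0.114), and the nearest to Col4a2 were Uap1l1 (0.113), Rundc3a (0.119) and Adgrg1 (0.132). Nearest to Col4a3 were Rasl10b (0.383), Wt1 (0.388) and Cx3cr1 (0.391), and nearest to Col4a4 were Ltbp3 (0.258), Dact3 (0.270) and Gpx3 (0.280). Nearest to Col4a5 were Sytl2 (0.127), Adamtsl2 (0.135) and Fstl3 (0.163), and nearest to Col4a6 were Itga8 (0.282), Htra1 (0.291) and Runx3 (0.308).

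The head-to-head partners were unequally close on this measure, and for 4 of the chains another chain was nearer than the partner when Col4a6 was counted. Of 15351 genes ranked, Col4a2 was number 60 for Col4a1 and Col4a1 was number 25 for Col4a2. Col4a4 was number 146 for Col4a3, while Col4a3 was number 3754 for Col4a4. Col4a5 was number 110 for Col4a6, and Col4a6 was number 2691 for Col4a5. The nearest chain was Col4a6 for Col4a3 (number 31) and for Col4a4 (70), Col4a2 for Col4a5 (169) and Col4a4 for Col4a6 (34). Col4a6 had 1 to 6 reads per Brap F/F liver and was tested only through its Brap LKO values, which limits every rank that involves it. With Col4a6 left aside, the nearest chain to Col4a3 was its partner Col4a4 (146), and that to Col4a4 was Col4a5 (112). All 8 livers, and so the genotype difference, enter this measure.

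Genes that modify, bind or cut type IV collagen were described from 4 lists. Of their 81 genes, 74 were tested, and 4 rose and 2 fell (limma), with a median log2 fold change of 0.29. Mmp7, among the 4 that rose, has a Brap F/F mean below the filter of 5. It was tested only through its Brap LKO values, which limits these counts. Among all genes tested, 0.664% rose and 0.104% fell. In these lists 53 of 74 differences were above 0, against 48% of all genes tested. The 2 groups did not overlap for 18 genes with Brap LKO higher and 2 with Brap LKO lower, against 5.48% and 4.39% of all genes tested. The number past the threshold was 0 on leaving out LKO 1, LKO 3, LKO 4 or F/F 2. The number was 1 on leaving out LKO 2 or F/F 1, and 2 on leaving out F/F 3. In these fits the share of all genes that rose fell as well, to between 0.0717% and 0.306%. Without F/F 4, 5 passed (4 higher and 1 lower), against 1.16% of all genes that rose and 0.352% that fell. DESeq2 on the recovered reads called 17 higher and 2 lower, against 3.02% and 1.13% of all genes.

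Of the 22 tested genes for chain modification, folding and secretion, 1 fell and none rose, with a median log2 fold change of 0.07. P4ha2, a catalytic subunit of prolyl 4-hydroxylase, fell from 259 ± 46.2 (SD, n = 4) to 147 ± 14.4 normalized counts (log2 fold change -0.80 ± 0.148, SE; limma adjusted p-value 0.0494). It passed in 10 of 24 alternatives, and was at -0.64 (limma adjusted p-value 0.0561) with the same total in each liver. Serpinh1, the collagen chaperone of the endoplasmic reticulum, had 313 to 431 normalized counts in Brap LKO and 171 to 275 in Brap F/F livers, groups that did not overlap (log2 fold change 0.72, limma adjusted p-value 0.0876). P4hb, the other subunit of prolyl 4-hydroxylase, differed by -0.23, Plod3, a lysyl hydroxylase, by -0.11, and Pxdn, which crosslinks type IV collagen through sulfilimine bonds, by 0.42 (limma adjusted p-values 0.338 to 0.489).

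Of the 30 tested basement membrane partners, 1 rose and 1 fell, with a median log2 fold change of 0.35. Fbln2, a fibulin of the matrix, rose from 56.4 ± 11.0 (SD, n = 4) to 108 ± 7.87 normalized counts (log2 fold change 0.95 ± 0.162, SE; limma adjusted p-value 0.0402). Fbln2 passed in 16 of 24 alternatives, with limma adjusted p-values of 0.0445 to 0.146 on leaving out each liver in turn. Smoc1, a secreted calcium-binding glycoprotein, fell from 5302 ± 406 to 3967 ± 236 (log2 fold change -0.42 ± 0.0762, SE; limma adjusted p-value 0.0481). Smoc1 passed in 7 of 24 alternatives, and was at -0.26 (limma adjusted p-value 0.0635) with the same total in each liver. Nid1, which links laminin to type IV collagen, had 522 to 761 normalized counts in Brap LKO and 374 to 478 in Brap F/F livers (log2 fold change 0.53, limma adjusted p-value 0.0964). Hspg2 (perlecan) and Lamc1 (the laminin gamma chain common to most laminins) differed by 0.34 and 0.18 with overlapping groups (limma adjusted p-values 0.413 and 0.44).

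Of the 14 receptors, 1 rose and none fell, with a median log2 fold change of 0.13. Itgb4, an integrin subunit that binds laminin at hemidesmosomes, rose from 17.0 ± 1.69 (SD, n = 4) to 37.1 ± 6.71 normalized counts (log2 fold change 1.07 ± 0.198, SE; limma adjusted p-value 0.0494). Itgb4 passed in 8 of 24 alternatives, and its call was lost on leaving out any one liver (limma adjusted p-values 0.0585 to 0.177). Ddr1, a collagen receptor tyrosine kinase, had 98.5 to 161 normalized counts in Brap LKO and 35.4 to 78.5 in Brap F/F livers (log2 fold change 1.33, limma adjusted p-value 0.0566). Itga1 and Itgb1, which together form a collagen-binding integrin, differed by 0.03 ± 0.0913 and -0.01 ± 0.0723 (SE; limma adjusted p-values 0.893 and 0.944).

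Of the 8 tested genes for turnover, 2 rose and none fell, with a median log2 fold change of 0.73. Mmp2, a gelatinase that cuts type IV collagen, rose from 44.0 ± 14.4 (SD, n = 4) to 154 ± 37.4 normalized counts (log2 fold change 1.83 ± 0.295, SE; limma adjusted p-value 0.0331). Mmp2 passed in 18 of 24 alternatives, with limma adjusted p-values of 0.0275 to 0.125 on leaving out each liver in turn. Mmp7, a protease of epithelial cells, rose from 4.43 ± 1.25 to 29.6 ± 18.6 (log2 fold change 2.34 ± 0.409, SE; limma adjusted p-value 0.0429). Its Brap F/F mean is below the filter of 5, so it was tested only through the livers in which it is high. Mmp7 passed in 10 of 23 alternatives, and its call was lost on leaving out any one liver (limma adjusted p-values 0.0516 to 0.119). Mmp12, the macrophage elastase, had 20.4 to 48.6 normalized counts in Brap LKO and 0 to 10.5 in Brap F/F livers (log2 fold change 2.57, limma adjusted p-value 0.136). Timp1, an inhibitor of these proteases, was below the filter, at 1.05 to 6.24 normalized counts in the 8 livers.

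**Figure D5:**
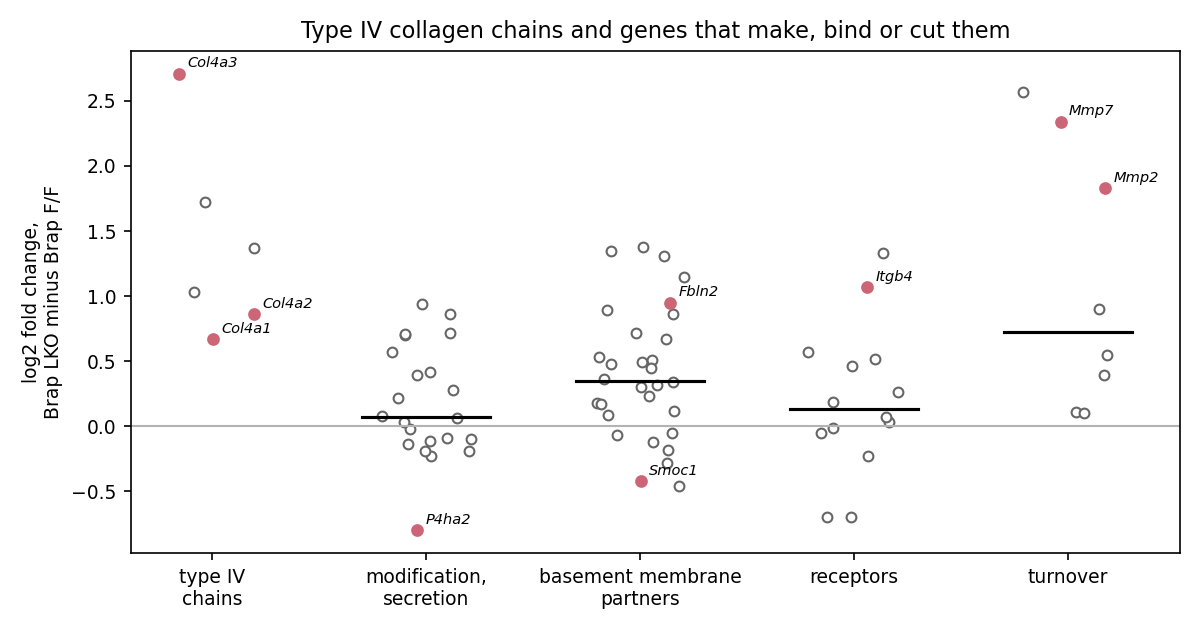
Log2 fold change (Brap LKO minus Brap F/F, limma) of the type IV collagen chains and of the tested genes of 4 lists, 1 point per gene with horizontal jitter, filled and named where the adjusted p-value is under 0.05, with black bars for the medians of the lists. The medians of the lists lie between 0.07 (modification and secretion) and 0.73 (turnover).

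Levels of cell type markers are given beside those of the chains, and no marker that was analysed was listed at 0 in all 8 livers. The counts of markers past the threshold stand against 0.664% of all genes tested that rose and 0.104% that fell. For stellate cells, 1 of 10 tested markers rose (Pdgfrb, log2 fold change 0.91, limma adjusted p-value 0.0494), the median log2 fold change was 0.34, and the summed level was 4317 to 6451 normalized counts in Brap LKO and 2930 to 5526 in Brap F/F livers. Of the 10 differences, 8 were above 0 and 2 below. Reln differed by 0.37, Colec11 by -0.07 and Lrat by -0.12 on the log2 scale (limma adjusted p-values 0.619, 0.912 and 0.804). Pdgfrb passed in 12 of 24 alternatives, and its call was lost on leaving out any one of LKO 1, LKO 2, LKO 3, LKO 4, F/F 1, F/F 2 and F/F 3 (limma adjusted p-values 0.0509 to 0.15). For fibroblasts, none of 11 passed the threshold, with a median of 0.86 and sums of 2171 to 4602 and 1482 to 2331.

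For endothelial cells, none of 14 passed, with a median log2 fold change of 0.21 and sums of 11710 to 16440 in Brap LKO and 9992 to 14940 in Brap F/F livers. For cholangiocytes, which line the bile ducts, 2 of 10 rose, with a median of 0.95 and sums of 1965 to 3853 and 1148 to 2178. These 2 were Cftr (14.1 ± 5.38 against 1.02 ± 0.859 normalized counts, SD, n = 4; limma adjusted p-value 0.0331) and Cldn4 (11.5 ± 7.43 against 0.762 ± 0.509; limma adjusted p-value 0.0494). Both have Brap F/F means below the filter of 5 and were tested only through the Brap LKO livers. Cftr passed in 16 and Cldn4 in 7 of 23 alternatives, and both calls were lost on leaving out LKO 1 (limma adjusted p-values 0.133 and 0.174), LKO 4 (0.108 and 0.123), F/F 1 (0.0598 and 0.089) or F/F 2 (0.0855 and 0.107). Cftr was also lost without LKO 2 (0.0886, limma), and Cldn4 without LKO 3 (0.115), F/F 3 (0.0888) or F/F 4 (0.0534). Among the hepatocyte, macrophage and alveolar type 1 markers, none of 8, 6 and 2 tested genes passed, with medians of -0.34, 0.39 and 0.41.

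Of the podocyte markers, 3 were tested, and Wt1, a transcription factor also known from mesothelial and stellate cells, rose from 7.46 ± 3.04 (SD, n = 4) to 43.4 ± 11.3 normalized counts (limma adjusted p-value 0.0177). This call was lost on leaving out LKO 1, LKO 3, LKO 4 or F/F 2 (limma adjusted p-values 0.0685, 0.057, 0.0631 and 0.0502). LKO 4, with the highest value of every chain, also had the highest sums of fibroblast (4602), cholangiocyte (3853), podocyte (1183) and alveolar type 1 (2109) markers. Its endothelial (11710) and hepatocyte (2078000) sums were the lowest among the Brap LKO livers. Its stellate sum (4427) lay below those of LKO 1 (5238) and LKO 3 (6451) and above that of LKO 2 (4317). Its macrophage sum (6041) lay below those of LKO 1 (9020) and LKO 2 (7491) and above that of LKO 3 (4858). The part of these cell types in the differences of the chains was not tested.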

How the data were processed

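Liver RNA was sequenced by the authors as single-end reads of 50 bases after NuGEN Universal Plus library preparation, and aligned to mm10 with STAR 2.6.0c. The counting tool, annotation and use of strand are not given in the sources used here. Each deposited signal value is a gene's read count that the authors scaled with DESeq2 by the size factor of its liver. All values (100%) were whole multiples of the smallest value above 0 of their liver (tolerance 0.001 read), which gave the reads behind each value. The authors' own columns of fold changes and p-values were not used, and 0 columns of other samples were present.

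log2(normalized count + 1) was compared with limma 3.58.1 (R 4.3.3; lmFit, eBayes with trend) for the 15352 genes with a mean of at least 5 over 8 livers, without covariates, with Benjamini-Hochberg adjustment over all of them. The study's own test, DESeq2, models counts, so DESeq2 1.42.0 and edgeR 4.0.16 were run on the recovered reads as alternatives. The study describes its controls as floxed littermates, but the labels do not tie single livers to a litter or batch, and p-values measure the spread between these livers. Differences are on the log2(normalized count + 1) scale, which understates those of low genes, and folds are computed from them.

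Positions and exon lengths are from GENCODE (M21), start windows from RefSeq. The members and lists were chosen with earlier results of these data known. Genes named were the chains, genes of 4 lists past the threshold and a preset few of each list, the 3 genes nearest to each chain, neighbours, genes sharing exon bases, Brap and the 3 most abundant of marker lists. Not every gene under this rule is printed. Pdgfrb, Cftr, Cldn4 and Wt1 were named after their values were seen. The fit was tested on simulated data.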

Additional observations from a re-analysis of the deposited data

How the results depend on the processing

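The log2 fold changes of all 6 chains were above 0 in every alternative tried, and Col4a3 stayed past the threshold in 24 of 24, Col4a2 in 21, Col4a1 in 12, Col4a4 and Col4a5 in 3 each, and Col4a6 in 2 of 23 (a minimum mean of 20 removed it). Col4a1 missed the threshold with a pseudocount of 0.5, a minimum mean of 20, limma without the trend and the animal series as a covariate (0.67 in each), and without F/F 2 and F/F 3 (0.51), an alternative chosen, like that without F/F 1 and F/F 4 and that of transcript length, after seeing the data. The series as a covariate gave 1.85 for Col4a4 and 1.28 for Col4a5, the same total in each liver 1.19 for Col4a5 and 1.86 for Col4a6, and DESeq2 1.36, 1.07 and 1.87 for Col4a4, Col4a5 and Col4a6, all past the threshold, though Col4a6 was tested only through its Brap LKO values. The chains past it numbered 3, against 5 with the same total, which moved the median of all genes to 0.15, and 6 with DESeq2. The pathway genes past it numbered 6, against 2 with a minimum mean of 20, 2 with quantile normalization, 2 without the trend, 15 with the same total (15 higher and 0 lower, against 4 and 2, with 2.99% of all genes higher), 16 without F/F 1 and F/F 4 (11 higher and 5 lower, with 5.87% of all genes higher and 4.59% lower), and 19 with DESeq2. The cause of these shifts was not tested. Mmp7, among the 6 pathway genes, was tested only through its Brap LKO values. With transcript length, Col4a1 in Brap LKO moved to 297 per kb, above Col4a2 at 284.

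Leaving out each liver in turn gave log2 fold changes of 0.57 to 0.75 for Col4a1, 0.78 to 0.94 for Col4a2, 2.57 to 2.84 for Col4a3, 1.07 to 1.55 for Col4a4, 0.87 to 1.16 for Col4a5 and 1.43 to 2.02 for Col4a6, with 1 to 3 chains and 0 to 5 pathway genes past the threshold. The difference in the ratio of Col4a5 to Col4a6 ran from -0.98 to -0.48. Samples with the same replicate number had deviations that correlated at -0.129, 0.003, 0.196 and 0.292 for numbers 1 to 4. For 3 of 4 numbers the best partner was the sample of the same number. Whether samples of the same number share a litter or batch is not stated in the labels, and these correlations cannot decide it. With the replicate number as a block, 4 chains passed (Col4a4 at 1.37, limma adjusted p-value 0.0483), and the pairing gave ratio differences of 1.34, 1.36 and 1.0 with an exact sign-flip p of 0.125, the smallest that 4 pairs allow.

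Genes far from the threshold changed sign. With the same total in each liver, Plod3 was at 0.04, Itgb1 0.14, Brap 0.09 and C430014B12Rik 0.05. Quantile normalization gave 0.11 for Itgb1 and 0.01 for Brap, and TMM factors and edgeR gave 0.00 for Itgb1. The series as a covariate gave -0.01 for Itga1 and 0.05 for Itgb1. Without F/F 1 and F/F 4, Lamc1 was at -0.01 and Itga1 at -0.06, and without F/F 2 and F/F 3, Itgb1 was at 0.06. Leaving out each liver in turn gave -0.02 to 0.10 for Itga1, -0.04 to 0.02 for Itgb1 and -0.24 to 0.04 for C430014B12Rik. At this depth Col4a6, with 1 to 6 reads per Brap F/F liver, is the chain least precisely measured.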
